A study of Mus musculus with 16 samples.

Results

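The genes described here are Bmp2 and 8 genes of bone morphogenetic protein (BMP) and transforming growth factor beta (TGF-beta) signalling: Bmp4, Bambi, Smad6, Smad7, Skil, Id1, Id2 and Id3. They were taken by symbol from the deposited feature list, where each matched 1 row, so they are 9 of 31053 genes. They were measured in mouse colon tumour organoids, epithelial cultures from AOM/DSS tumours, which arise after the mutagen azoxymethane and the colitis-inducing agent dextran sodium sulfate. The study compared organoids of genotype KMT9wt/wt, labelled minus TAM, with organoids of genotype KMT9ko/ko, labelled plus TAM, both at passage 14, by 10x Chromium 3′ single-cell RNA-seq. KMT9 is a histone methyltransferase whose catalytic subunit is encoded by N6amt1. The plus TAM group differs from the control in both the genotype and the TAM label, so the effects of the agent and of the deletion cannot be told apart. The count matrices of both groups carry the same day label, so the comparison covers no other time point. The labels do not say from which event that day was counted. The driver of the recombinase, and whether the cultures came from 1 or several tumours, are not stated in the labels.

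BMP ligands bind pairs of type I and type II receptors, which phosphorylate SMAD1, SMAD5 and SMAD9. TGF-beta and activin ligands act in the same way through SMAD2 and SMAD3, and both groups of SMADs enter the nucleus with SMAD4. The pathway limits itself: Smad6, Smad7, Bambi and Skil are induced by it and dampen it, while the Id genes, which encode inhibitors of basic helix-loop-helix transcription factors, are classical direct targets of BMP. In the colon, BMP signalling is strongest towards the top of the crypt and opposes stem cell renewal at its base.

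Each group has 8 sample records but 1 count matrix, and the series' design text speaks of 2 samples. There was therefore 1 library per group and no replicate. No test across replicates is possible. The 95% intervals below (exact Poisson for levels, exact conditional binomial for ratios, exact Clopper-Pearson for shares of cells) cover counting error only. Of 3618 minus TAM and 2078 plus TAM barcodes, 2629 and 1481 cells were kept, with a median of 24603 and 24184 UMIs (unique molecular identifiers, 1 per captured transcript). Their summed UMIs, 68605296 and 37358097, are the depth behind each level, which is given as CPM (the gene's UMIs as a share of all UMIs of the kept cells, on the usual CPM scale). In all, 498 barcodes occurred in both matrices. They included 324 kept plus TAM cells and 167 kept minus TAM cells. The counts of members over the whole libraries, the Bmp2 ratios and the weighted ratios are therefore also given without them, as are some plus TAM co-detection shares. Those values come from 1157 plus TAM and 2462 minus TAM cells. Most cluster ratios of the other members, the counts of members by cluster, the Bmp2 classes and the pairs are given only with them. N6amt1 stood at 34.1 CPM in the minus TAM library and 6.13 CPM in the plus TAM library, lower by 2.47 on the log2 scale, the direction of the genotype label. The epithelial markers were all measured and summed to 12873 and 14435 CPM. No fibroblast marker of 7 was measured: their sum was 0.977 and 1.87 CPM, with Col1a2, Col3a1, Dcn and Lum at 0 UMIs in both libraries. Immune markers summed to 10.4 and 14.6 CPM and endothelial markers to 11.0 and 20.5 CPM, with 1 measured gene in each list. Their part in the results was not tested.

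Bmp2 and the inhibitory genes Skil, Bambi and Smad6 were higher in the plus TAM library, by 4.97-fold, 2.41-fold, 1.97-fold and 1.73-fold. Id1 and Id2 were lower by 1.30-fold and 1.34-fold over the whole library, and Id3 was at the same level in both. Within 3 of the 5 cell clusters that both libraries filled, however, the ratios of all 3 Id genes lay above 1 beyond counting error, by less than 1.5-fold for Id2 in cluster 3. A gene was counted as measured at 10 CPM or more in at least 1 library, and called higher or lower when the libraries differed by at least 1.5-fold. By that size threshold 4 of the 8 measured members were higher, against 8.06% of the 7912 measured genes, and 0 were lower, against 10.7%. The members were chosen with earlier results of these data known, so such counts, here and below, are descriptions and no evidence of enrichment. The median log2 ratio (plus over minus TAM) was 0.66 over the measured members and -0.06 over all measured genes. Without cells of shared barcodes the same 4 members were higher, against 6.54% of measured genes, and 0 were lower, against 11.3%. Relative to genes of like transcript length, a comparison added after seeing the data, the same 4 were again higher, against 9.21%, and 0 lower, against 7.85%.

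Of the ligands, Bmp2 (ENSMUSG00000027358, chr2:133552159-133562885, plus strand, GRCm38) encodes a secreted BMP. It had 984 UMIs in the minus TAM library, a level of 14.3 CPM (13.5 to 15.3), and 2661 UMIs in the plus TAM library, a level of 71.2 CPM (68.5 to 74.0). The intervals lay far apart, and the log2 ratio was 2.31 (2.21 to 2.42). Without cells of shared barcodes the levels were 14.9 and 59.4 CPM, a log2 ratio of 1.99. Bmp4 (ENSMUSG00000021835, chr14:46383520-46390669, minus strand), the related ligand, was below the minimum in both libraries, at 2.96 and 3.43 CPM from 203 and 128 UMIs. Its interval (-0.12 to 0.54, log2) included no difference. Exons of Gm15217 lie on the opposite strand within Bmp4, and the labels do not say whether reads were counted by strand. The other 8 members overlap no other gene in GENCODE release 21.

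Among the inhibitors, Bambi (ENSMUSG00000024232) encodes a pseudoreceptor that lacks the kinase domain and blocks receptor signalling. It stood at 28.8 CPM in the minus TAM library and 56.7 CPM in the plus TAM library (log2 ratio 0.98, 0.89 to 1.07). Skil (ENSMUSG00000027660, chr3:31095058-31122577, plus strand) encodes SnoN, a nuclear repressor of SMAD complexes, and stood at 28.9 and 69.8 CPM. Its log2 ratio of 1.27 (1.19 to 1.36) was the second largest of the members and hardly moved without shared barcodes (1.25). The intervals of the 2 libraries did not overlap for either gene.

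The inhibitory SMADs differed less. Smad6 (ENSMUSG00000036867, chr9:63953076-64022059, minus strand), which mainly blocks BMP receptors, stood at 9.29 CPM (8.58 to 10.0) in the minus TAM library and 16.1 CPM in the plus TAM library. This is a log2 ratio of 0.79 (0.63 to 0.96). Smad7 (ENSMUSG00000025880), which blocks TGF-beta and BMP receptors alike, stood at 16.0 and 22.9 CPM. Its ratio of 1.43-fold was the nearest below the size threshold, as that of Smad6 was the nearest above it.

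**Figure D1:**
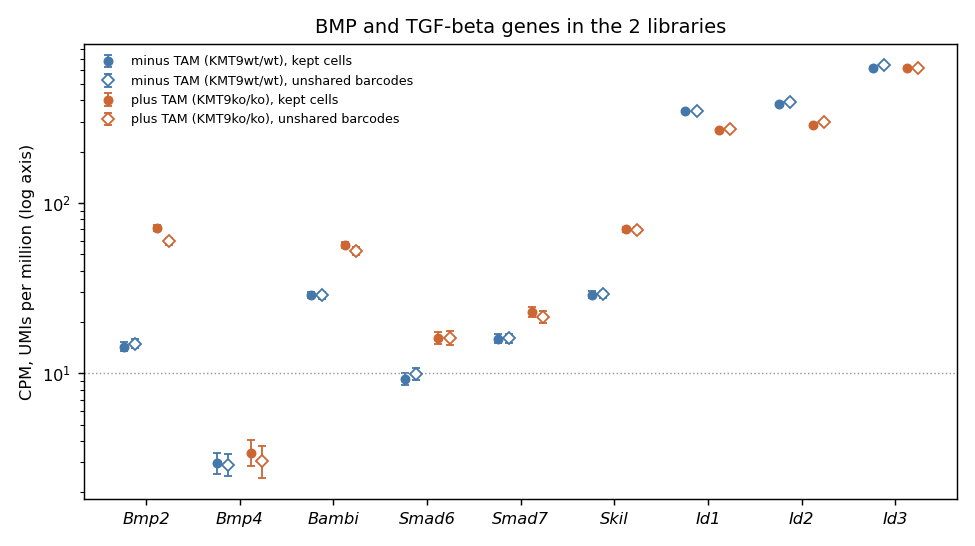
Levels of the 9 genes in the minus TAM and plus TAM libraries, in CPM on a log axis. Filled points are all kept cells of a library, open diamonds its cells of unshared barcodes, bars 95% Poisson intervals and the dotted line the minimum of 10 CPM: Bmp2, Bambi, Smad6, Smad7 and Skil lie higher in plus TAM, Id1 and Id2 lie lower, and the filled points of Id3 are level at 619 and 622 CPM.

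The Id genes were the most abundant members. UMIs of a 3′ kit count transcript ends, so levels of different genes can be set side by side without scaling for length. Id1 (ENSMUSG00000042745, chr2:152736251-152737410, plus strand) stood at 348 CPM in the minus TAM library and 267 CPM in the plus TAM library. Id2 (ENSMUSG00000020644, chr12:25093799-25097140, minus strand) stood at 382 and 285 CPM. Both were thus lower in the plus TAM library beyond counting error, with log2 ratios of -0.38 (-0.42 to -0.35) and -0.42 (-0.45 to -0.39), but short of the size threshold. Id3 (ENSMUSG00000007872, chr4:136143497-136145755, plus strand) stood at 619 and 622 CPM (log2 ratio 0.01, -0.02 to 0.03). In the order of levels Id3, Id2 and Id1 led in both libraries, and in the minus TAM library Skil and Bambi, next in order, were within counting error of each other. Bmp2 moved from below Smad7, Bambi and Skil in the minus TAM library to the fourth place in the plus TAM library, where its level and that of Skil (69.8 CPM) were within counting error of each other.

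SMAD proteins bind DNA at short elements: GTCT or, as a palindrome, GTCTAGAC, and the SMADs of the BMP branch also at the GC-rich GGCGCC. The RefSeq promoter table (GRCm38.p6, 250 bases before to 50 after each listed start) holds 4 of the 9 members: Bmp4, Smad6, Id2 and Id3. The palindrome was in the Smad6 window only, and GGCGCC in the Id2 window only, with both strands searched. These sites are shown because they are the matches that few promoters share, 5′ to 3′ on the strand of the gene, with the matched letters in capitals.
Smad6 site, chr9:64022047-64022072, minus strand: cgccaaagtGTCTAGACtggcatatg
Id2 site, chr12:25096309-25096332, minus strand: ggccccctgGGCGCCcagcgcaca
The Smad6 palindrome straddles the listed start, with 4 bases before it and 4 after. The Id2 match begins 231 bases before the listed start, in a window that overlaps exons of Id2 transcripts in GENCODE. GTCTAGAC was in 0.213% of the 32851 windows of 300 bases and GGCGCC in 11.9%, whereas the 4-base core GTCT was in 82.9% of the 250-base windows. GTCT is contained in the palindrome, so those matches overlap. The 250 bases before the Smad6 start, in which the only GTCT (in capitals) forms the first part of that palindrome, read as follows, with no GENCODE exon in the window.
Smad6 upstream window, chr9:64022060-64022309, minus strand: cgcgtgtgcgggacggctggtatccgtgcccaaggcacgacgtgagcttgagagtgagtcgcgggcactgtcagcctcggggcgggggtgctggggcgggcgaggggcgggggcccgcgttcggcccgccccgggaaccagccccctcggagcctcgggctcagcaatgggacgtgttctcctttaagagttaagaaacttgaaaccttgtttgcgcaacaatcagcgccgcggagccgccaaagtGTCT
The matches are letters in the genome. No binding was measured here.

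Cells were grouped into 13 clusters without the 9 genes and without the wider pathway list, so that the genes described did not shape the groups. Composition differed widely between the libraries. Clusters 0, 1 and 8, led by Shh and Reg4, by Saa3 and Cav1, and by Aqp1, held 58.4% of minus TAM and 3.31% of plus TAM cells. Conversely, squamous-like cluster 5 held 36 minus TAM and 288 plus TAM cells. Only 5 clusters had 50 cells or more in both libraries: the cycling (G2 and M)-like cluster 2, cluster 3 led by Cxcl14 and Cadps, cluster 4 led by H19 and Asprv1, cluster 6 led by Prss56 and the pancreatic lipase-related genes Pnliprp1 and Pnliprp2, and cluster 7 led by Gm26917 and Gm26870. In cluster 2 the S phase markers were raised over the other cells as well, all of those listed but Ung. Its name therefore does not set it to G2 and M alone. Cluster 7 held shallow cells, with a median of 3906 UMIs, and its values rest on few UMIs.

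Bmp2 was higher in plus TAM cells by the size threshold in 4 of these 5 clusters, though by less than in the whole library in each of them. In cluster 2 it stood at 12.4 CPM in minus TAM cells and 34.8 CPM in plus TAM cells (log2 ratio 1.49). In cluster 3 the levels were 38.0 and 92.3 CPM (1.28). In cluster 6 they were 98.6 and 256 CPM (1.38). Cluster 6 had the highest Bmp2 level in either library, and the intervals of both libraries were apart in these 3 clusters. In cluster 4 the Bmp2 levels were 27.0 and 38.0 CPM, and the log2 ratio of 0.49 (0.08 to 0.92) missed the threshold. The ratio of 2.21 in cluster 7 rests on 13 and 21 UMIs. Without shared barcodes the log2 ratio in cluster 3 was 0.71 and those of clusters 2, 4, 6 and 7 were 1.69, 0.43, 1.32 and 2.21, so the same count of 4 passed.

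**Figure D2:**
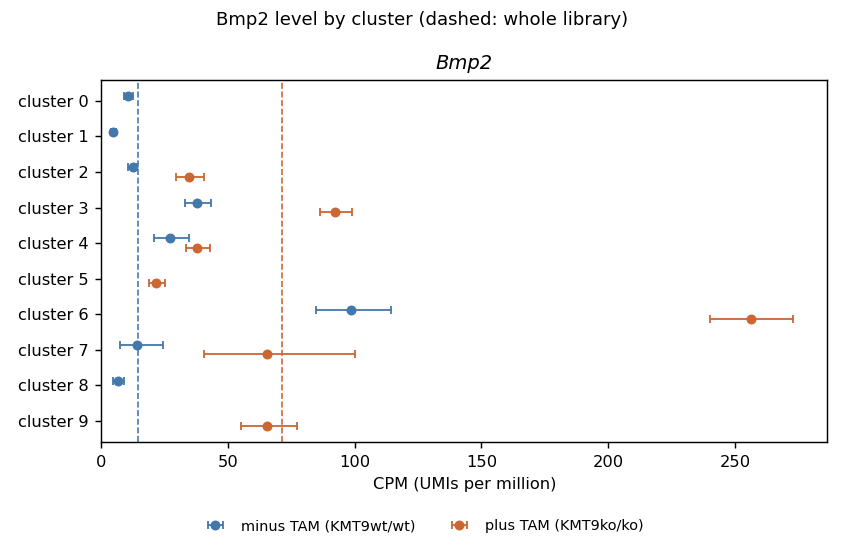
Bmp2 level (CPM, linear axis) in each cluster with 50 cells or more in a library, by library, with 95% Poisson intervals; dashed lines are the whole libraries. Cluster 6 is highest in both libraries, at 98.6 CPM in minus TAM and 256 CPM in plus TAM cells.

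Bmp2 was concentrated in few cells. The tenth of cells with the most Bmp2 held 74.6% of its UMIs in the minus TAM library and 60.1% in the plus TAM library, with a maximum of 15 and 40 UMIs in 1 cell. In the plus TAM library, cluster 6 held 35.7% of Bmp2 UMIs in 12.1% of cells, and cluster 3 held 31.3% in 25.1%. Among clusters of 50 cells or more in a library, the range was 21.2-fold in minus TAM cells, from 4.65 CPM in cluster 1 to cluster 6, and 11.8-fold in plus TAM cells, from 21.8 CPM in cluster 5 to cluster 6. Among the same clusters, the highest and lowest Skil levels differed by 1.90-fold in minus TAM and 1.86-fold in plus TAM cells. Smaller clusters lay outside these ranges, such as cluster 8 in plus TAM cells (17 cells) at 1.91 CPM of Bmp2 and 36.2 CPM of Skil.

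The inhibitory genes were higher within clusters too. Skil passed the threshold in 4 of 5 clusters, with log2 ratios of 1.24, 1.18, 1.16 and 1.43 in clusters 2, 3, 4 and 6 and 0.37 in cluster 7. Smad6 passed in all 5, with 2.04, 1.2, 1.70, 1.15 and 0.64, the last from 11 and 6 UMIs. Bambi had 0.98, 1.0 and 1.16 in clusters 2, 3 and 6, but 0.37 in cluster 4 and 0.06 in cluster 7. Smad7, below the threshold in the library as a whole, had log2 ratios of 1.10 in cluster 3 and 1.44 in cluster 4, where it stood at 8.37 and 7.09 CPM in minus TAM cells and at 18.0 and 19.3 CPM in plus TAM cells. It also passed in the shallow cluster 7, at 59.9 and 99.8 CPM (0.74). In clusters 2 and 6 its log2 ratios were 0.45 and 0.42.

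The Id genes differed in direction between the whole library and some of the clusters. In cluster 4, Id1 stood at 125 CPM in minus TAM and 281 CPM in plus TAM cells, Id2 at 217 and 333 CPM, and Id3 at 199 and 478 CPM. All 3 were thus higher in plus TAM cells, with log2 ratios of 1.17, 0.61 and 1.27 and no overlap of the counting intervals. In cluster 6 the log2 ratios of Id1, Id2 and Id3 were 0.60, 1.05 and 0.75, and in cluster 3 they were 0.60, 0.33 and 0.77. The ratio of Id1 in cluster 3 was just past the threshold and fell short of it, at 0.51, without shared barcodes. Cluster 2 was mixed, with -0.23 for Id1, 0.10 for Id2 (-0.12 without shared barcodes) and 0.57 for Id3. Cluster 7 went the other way, with -0.20, -0.63 and -0.39.

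Clusters 0, 1 and 8, which held few plus TAM cells, accounted for most Id transcripts of the minus TAM library. They held 72.5% of its Id1 UMIs, 69.6% of its Id2 UMIs and 72.2% of its Id3 UMIs, above their share of its cells (58.4%), as was their share of Smad6 UMIs (69.5%). They held 29.8% of its Bmp2 UMIs, 52.6% of its Bambi UMIs and 58.1% of its Skil UMIs. The Id1 level was 387 CPM for cluster 0, 388 CPM for cluster 1 and 653 CPM for cluster 8. Minus TAM cells of clusters 3, 4 and 6 had 118, 125 and 155 CPM. Id2 and Id3 were less uniform: in clusters 0, 1 and 8 Id2 had 533, 403 and 375 CPM and Id3 had 1018, 487 and 953 CPM, while minus TAM cells of cluster 6 had 620.3 CPM of Id3. Among plus TAM clusters of 50 cells or more, Id1, Id2 and Id3 were highest in cluster 9, led by the interferon gene Ifnl2 and the chemokine gene Cxcl10, at 596, 477 and 2002 CPM. Some smaller plus TAM clusters reached higher levels: the 17 cells of cluster 8 had 869.6 CPM of Id1, and the 21 cells of cluster 0 had 683 CPM of Id2. Between the libraries, clusters 0, 1 and 8 went both ways. Their log2 ratios, in that order, were 0.08, -0.15 and 0.41 for Id1 and 0.36, -0.89 and -1.08 for Id2. For Id3 they were 0.21, 0.61 and -1.06. These ratios rest on 21, 11 and 17 plus TAM cells.

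**Figure D3:**
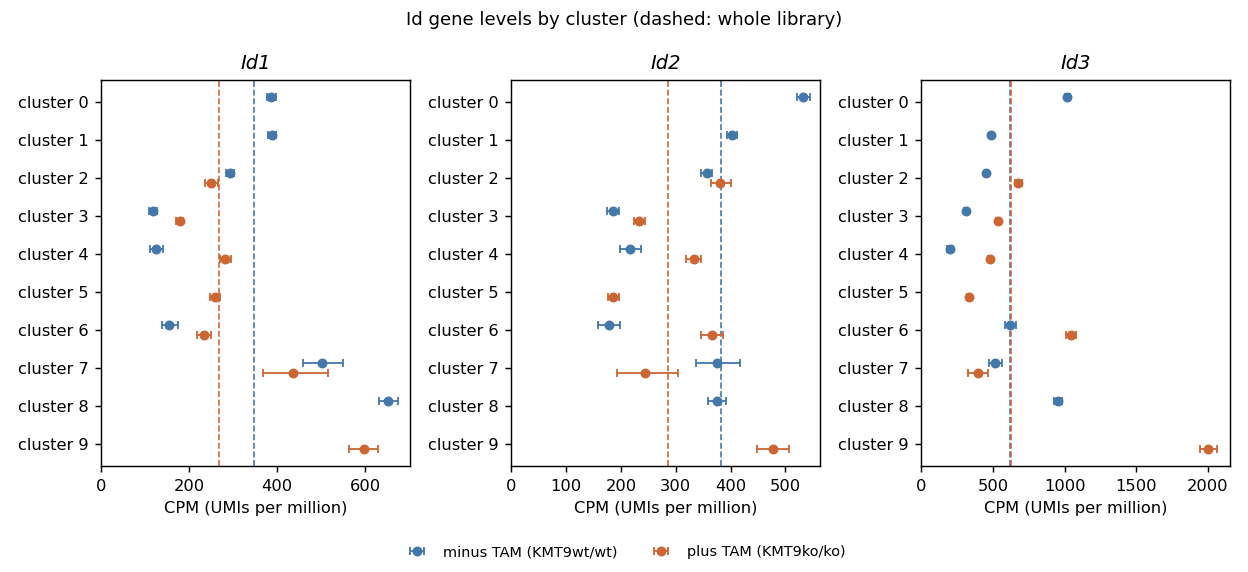
Id1, Id2 and Id3 levels (CPM, linear axis) in each cluster with 50 cells or more in a library, with 95% Poisson intervals; dashed lines are the whole libraries. In clusters 3, 4 and 6 plus TAM points lie to the right of minus TAM points, and clusters 0, 1 and 8 have minus TAM points only.

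By cluster, the members higher by the size threshold were 4 of 8 in cluster 2 (background 7.52% of measured genes), 7 in cluster 3 (6.92%), 6 in cluster 4 (6.59%), 7 in cluster 6 (9.79%) and 3 in cluster 7 (18.5%). Id2 in cluster 7 was the 1 member lower by that threshold, against 26.4% of measured genes there. No member was lower in cluster 2 (14.7%), cluster 3 (2.79%), cluster 4 (4.99%) or cluster 6 (4.61%). When minus TAM cells were weighted to the cluster shares of the plus TAM library, the log2 ratio of Bmp2 was 1.28 (2.43-fold, from a weighted control level of 29.4 CPM). Those of Smad6, Skil and Bambi were 1.34, 1.08 and 0.85. The Id genes then lay above 0, at 0.54 for Id1, 0.45 for Id2 and 0.72 for Id3, and Id3 passed the size threshold, so that 5 members were higher, against 4.03% of measured genes, and 0 lower, against 2.22%. The median over the measured members was 0.78. With coarser and finer clusters and without shared barcodes, weighting gave log2 ratios of 0.96 to 1.22 for Bmp2, 0.61 to 0.81 for Bambi, 1.21 to 1.45 for Smad6, 1.06 to 1.12 for Skil, 0.40 to 0.67 for Id1, 0.21 to 0.45 for Id2 and 0.57 to 0.77 for Id3. Weighting leans on few control cells where the plus TAM library is dense, such as the 36 of cluster 5 and the 21 of cluster 9.

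**Figure D4:**
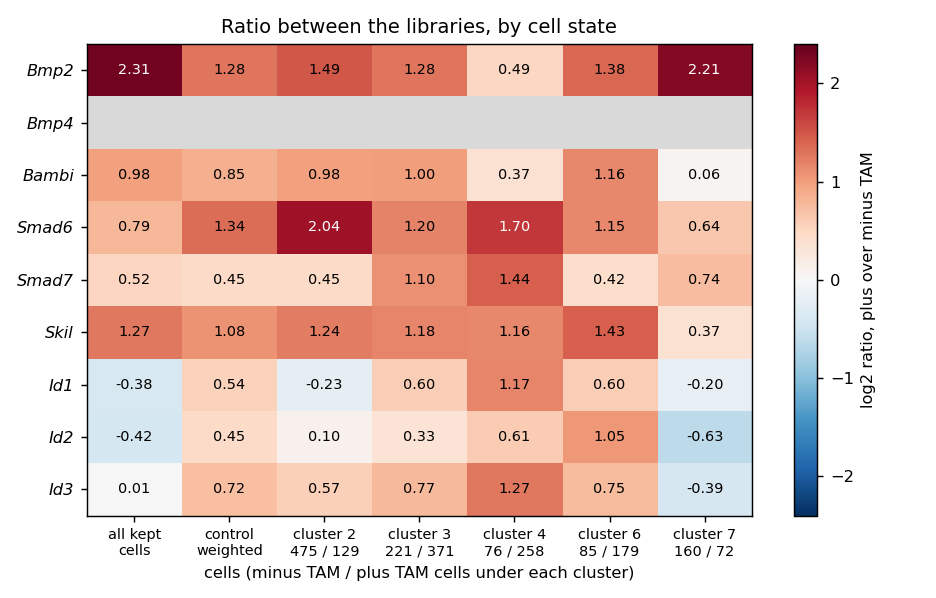
Log2 ratio, plus over minus TAM, of each gene in all kept cells, after weighting control cells to the plus TAM cluster shares, and in each cluster with 50 cells or more in both libraries (minus TAM / plus TAM cells are given under each column; grey, below 10 CPM). Id1, Id2 and Id3 are below or near 0 in all cells (-0.38, -0.42 and 0.01) and above 0 in clusters 3, 4 and 6.

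Co-detection asked whether cells with a Bmp2 UMI also held UMIs of the other members. To remove depth differences between cells, each cell of 5000 UMIs or more was thinned to 5000, which left 2487 minus TAM and 1387 plus TAM cells and dropped 142 and 94. Bmp2 was then detected in 156 minus TAM cells, 6.27% (5.35 to 7.30), and 323 plus TAM cells, 23.3% (21.1 to 25.6); unthinned shares were 19.5% and 48.6%. Free RNA can place UMIs in cells that do not express a gene, and no cell type that must lack Bmp2 was known here. The lowest cluster share was 2.54% in minus TAM cells (cluster 1) and 10.3% in plus TAM cells (cluster 5), and the highest was 31.8% and 53.4%, both in cluster 6.

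In the plus TAM library, 7 of the other 8 members were detected in a larger share of Bmp2-positive than of Bmp2-negative cells, against 52.4% of measured genes; the exception was the sparse Bmp4. Skil was found in 32.8% (27.7 to 38.2) of Bmp2-positive and 25.8% of Bmp2-negative cells. Id3 was found in 73.7% (68.5 to 78.4) and 65.1% (62.2 to 68.0), the one pair whose intervals did not overlap. Id1 was found in 55.1% and 50%. By level, Skil (95.4 against 70.5 CPM), Id2 (350.5 against 280.3 CPM) and Id3 (773 against 622 CPM) were higher in Bmp2-positive cells beyond counting error, but none of the 7 members above the minimum level was past 1.5-fold in either direction, against 7.46% of measured genes higher and 5.45% lower. The differences were small, and Bmp2-negative cells taken at the cluster shares of the positive ones gave 28.2% for Skil, 71.2% for Id3 and 46.9% for Id1. Within the 5 clusters with 20 cells or more of each kind, Id1 had the larger share among Bmp2-positive cells in 5. Skil had it in 4, Bambi, Smad7, Id2 and Id3 in 3, Smad6 in 2 and Bmp4 in 1. How often other measured genes reach such counts was not computed. Of plus TAM cells with a Bmp2 UMI, 30% carried a barcode found in both matrices, against 21.1% of those without. Without these barcodes the Bmp2-positive and Bmp2-negative shares were 73.9% and 67.1% for Id3, 31.9% and 25.6% for Skil and 54.0% and 49.5% for Id1. A separate random thinning of those cells alone gave 6 of 8 members with the larger share in Bmp2-positive cells, with Bambi no longer among them.

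In the minus TAM library 4 of 8 members had the larger share in Bmp2-positive cells, against 48.7% of measured genes. Id1 was found in 51.9% (43.8 to 60.0) of these cells and 57.7% of Bmp2-negative cells, and Id2 in 56.4% and 65.1%. By level, Id1 was lower in the Bmp2-positive cells by 0.72 on the log2 scale (interval -0.94 to -0.50), at 228 against 375 CPM, and it was the 1 measured member past 1.5-fold in this direction, against 7.47% of measured genes. No member was higher by that size, against 7.78%. Id2 and Id3 were also lower in the Bmp2-positive cells beyond counting error, with log2 ratios of -0.39 (-0.58 to -0.21) and -0.42 (-0.56 to -0.28). At the cluster shares of the positive cells, the Bmp2-negative share of Id1 was 49.9%, below that of the positive cells. Whether the libraries differ in co-detection was not tested.

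**Figure D5:**
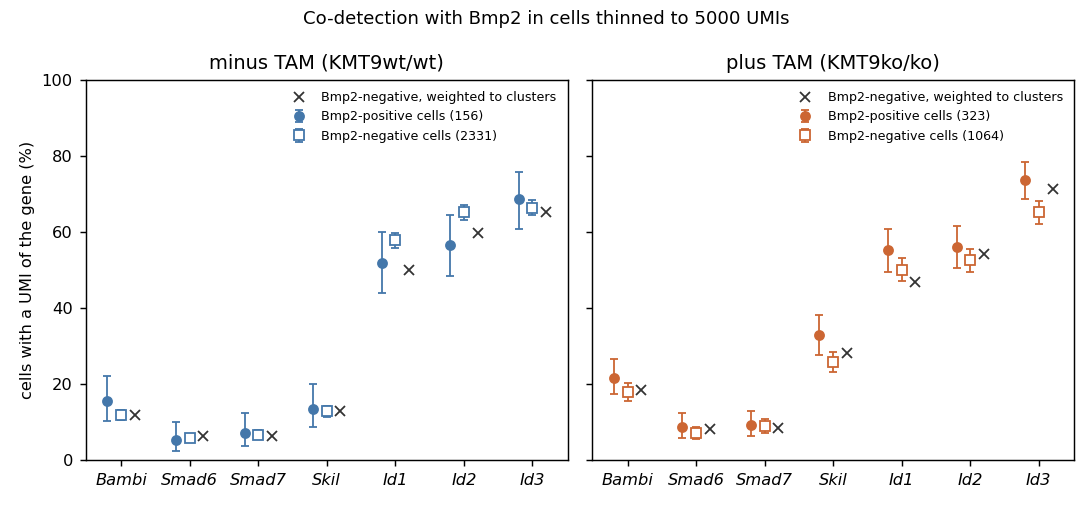
Share of cells (percent, after thinning to 5000 UMIs) with a UMI of each member above the minimum level among Bmp2-positive and Bmp2-negative cells of each library, with 95% Clopper-Pearson intervals; crosses are Bmp2-negative cells at the cluster shares of the positive ones. Most intervals overlap, but those of Id3 in the plus TAM library, at 73.7% and 65.1%, do not.

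Pooled over clusters, plus TAM cells with more Bmp2 had more Id3. Thinned cells with 0, 1, 2 and 3 or more Bmp2 UMIs (1064, 222, 44 and 57 cells) had 622, 650, 859 and 1186 CPM of Id3, with intervals of 601 to 644 in the first class and 1063 to 1319 in the last. Skil stood at 70.5, 88.3, 100 and 119 CPM in the same classes, with overlapping intervals between neighbours. In minus TAM cells Id3 showed no such order, at 723, 583, 282 and 585 CPM, the last class holding 13 cells. Cluster 6, which had the highest Bmp2 level, also had 1045 CPM of Id3 in plus TAM cells, and the classes were not separated by cluster. Within cluster 6, Id3 was found in 80.9% of Bmp2-positive and 81.7% of Bmp2-negative plus TAM cells. Its share was larger among Bmp2-positive cells in 3 of the 5 plus TAM clusters compared. The intervals leave out spread between cells, and the classes were not repeated without cells of shared barcodes.

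In the plus TAM library, all pairs of other members but Bmp4 and Smad6 were found together in more cells than the product of their shares gives. Most of these pairs lay above the product in the minus TAM library too. The exceptions there were Bmp4 with Bambi, Smad6, Skil and Id3, and Bambi with Smad6, Skil and Id3. For example, Smad6 and Smad7 were found together in 15 cells, where the product gives 9.21. Bambi and Smad6 were found together in 30 cells, where the product of their shares gives 19.3. In the minus TAM library they were found together in 16 cells, where it gives 17.3. Smad6 and Skil were found together in 40 plus TAM and 26 minus TAM cells, where the products give 28.2 and 18.4. Cells of different clusters were pooled in these counts. Pairs of other genes were not counted, so the excess cannot be read as particular to these members.

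Over the 15 sums of a cluster within a library with 50 cells or more, the genes whose log2 level was most like that of Bmp2 were Ism1, Nav2, Micu3, Palld and Spindoc, with Pearson's r from 0.94 to 0.91 of 7911 genes compared. Ism1, a secreted protein gene, stood at 6.95 and 19.9 CPM in the whole libraries. Of the members, Skil came nearest (r = 0.68), followed by Smad6 (0.57), and Id1 had -0.42. The 15 sums come from 2 libraries and share their clusters, so the correlations are descriptions.

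A wider list of 65 BMP and TGF-beta genes, also chosen with earlier results of these data known, placed the members in their pathway. In it, 30 genes were measured: 11 were higher and 2 lower by the size threshold (background 8.06% and 10.7%), with a median log2 ratio of 0.36 against -0.06 for all measured genes. Without shared barcodes 9 were higher and 2 lower, since Smurf2 fell short of the threshold (0.54) and Gdf11 of the minimum level (9.92 CPM). Among the ligands, the activin subunit Inhba stood at 4.18 CPM in the minus TAM and 22.1 CPM in the plus TAM library (log2 ratio 2.4), and Gdf11, an activin-like ligand, at 2.64 and 11.3 CPM (2.10). Without shared barcodes Inhba stood at 4.08 and 15.1 CPM (1.89), a smaller ratio beyond counting error. Inhba is also a leading gene of the squamous-like cluster 5. Bmp8b was lower, at 18.1 and 10.5 CPM (-0.79), while Tgfb1 (0.20) and Bmp7 (0.40) were short of the threshold.

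Of 4 measured receptors 2 were higher. Bmpr2, the type II BMP receptor, stood at 8.34 and 15.9 CPM (log2 ratio 0.93), and Tgfbr1, the type I TGF-beta receptor, at 12.8 and 20.1 CPM (0.66). The type I BMP receptor Bmpr1a (0.32) and Tgfbr2 (0.19) were short of the threshold. Of 5 measured SMAD transducers 1 was higher, Smad3 of the TGF-beta branch, at 7.81 and 13.7 CPM (0.81); Smad2 (0.07) and Smad5 (0.30) were nearest to no change.

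The 2 measured secreted antagonists were both higher. Fst (follistatin, which binds activins) stood at 10.9 and 19.7 CPM (log2 ratio 0.85), and Twsg1, an extracellular BMP modulator, at 7.93 and 13.9 CPM (0.81). The BMP antagonist Nog was nearly undetected, with 28 and 23 UMIs, and Grem1 had 0 UMIs in both libraries. Of 8 measured intracellular inhibitors 3 were higher: Pmepa1, a TGF-beta-induced inhibitor, at 39.2 and 99.3 CPM (1.34), and the ubiquitin ligases Smurf1 at 11.9 and 20.3 CPM (0.77) and Smurf2 at 7.24 and 11.1 CPM (0.62). Ppm1a (-0.04) and Tgif1 (0.09) were not. Of 6 measured further targets, the cell cycle inhibitor Cdkn2b was higher, at 67.1 and 123 CPM (0.87), and Atoh8, a BMP target, was lower, at 18.1 and 9.82 CPM (-0.89). Tsc22d1 (0.15) and Tgfbi (0.38) were short of the threshold.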

How the data were processed

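The deposited files hold the authors' UMI counts per gene and barcode, as 1 matrix per group in 10x format; Cell Ranger made them, per the submitters' processing notes, version 3.1.0 per the file headers, against mm10. The annotation release used for counting is not stated there. Because 3′ ends were counted, isoforms are not separated. The 9 members and the wider list were chosen with earlier results of these data known. Cells were kept at 1000 genes, 2000 UMIs or more and a mitochondrial share of 20% or less, and doublets (Scrublet in scanpy 1.11.5, removed at 0.8% per 1000 cells; its automatic threshold marked 1 and 4) were removed, 58 in the minus TAM and 18 in the plus TAM library. Cells failing the filter numbered 931 and 579. CPM and log2 ratios were computed here from summed counts. Clusters came from 2000 variable genes without the members and the wider list, 30 components, 15 neighbours and Leiden resolution 0.8. Named genes were all members, every wider-list gene past 1.5-fold at 10 CPM, the 2 per role nearest no change, and the 5 most like Bmp2. Gene positions are those of GENCODE release 21, and 31011 of 31053 identifiers matched. Ratio intervals were tried only on simulated Poisson counts, the model they assume. That trial does not cover spread between cells or between libraries.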

Additional observations from a re-analysis of the deposited data

Results flagged for a closer look

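Id2 pointed in opposite directions in a pair of clusters. Its log2 ratio, plus over minus TAM, was 1.05 in cluster 6 (322 and 1359 UMIs) and -0.63 in the shallow cluster 7 (345 and 78 UMIs), and both passed the 1.5-fold size threshold. The difference was not tested.

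The barcodes below the cell filter, 931 minus TAM and 579 plus TAM, entered the comparisons only where the cell filter was dropped, and held more of 3 members in the plus TAM library, with ratio intervals above 0. These 3 were picked by that rule, at 1.5-fold or more. The share of all genes that pass it was not computed for these barcodes, so the count is no result about the members. Bmp2 stood there at 24.0 and 60.4 CPM (log2 ratio 1.33, from 31 and 52 UMIs), Smad7 at 34.0 and 59.2 CPM (0.80) and Skil at 40.2 and 65.0 CPM (0.69). The intervals of the Id genes lay below 0, with log2 ratios of -0.25 for Id1 (-0.47 to -0.02), -0.40 for Id2 (-0.64 to -0.16) and -0.70 for Id3 (-0.92 to -0.48).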

How the results depend on the processing

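The log2 ratio of Bmp2 (2.31) kept its direction and stayed past 1.5-fold in all 13 alternatives. It moved beyond counting error to 1.99 without cells of shared barcodes and 1.28 with control cells weighted, and, in alternatives chosen after seeing the data, to 2.08 without cluster 6 and 2.43 set against genes similar in transcript length. The count of members higher (4) became 2, Bmp2 and Skil, at a 2-fold threshold, and lay between 3 and 5 in the other 16 alternatives; in those that gave 3, Smad6 was the member lost. No member was lower in any of 17. Clusters with Bmp2 higher numbered 4 of 4 compared at resolution 0.4, 5 of 7 at resolution 1.2 and 4 of 5 without shared barcodes. Members with a larger share among Bmp2-positive minus TAM cells numbered 1 after thinning to 2000 UMIs and 2 after thinning to 10000, against 4, so that count has no firm reading; in plus TAM cells they numbered 6 to 8. Over the 13 alternatives Id1 ranged from -0.45 to 0.54, Id2 from -0.51 to 0.45 and Id3 from -0.11 to 0.72, each highest with control cells weighted. Depth limits the per-cluster ratios of Bmp4, Smad6 and cluster 7. No paired analysis was possible because each group is 1 library and the result comes from no test.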
